A study of Mus musculus with 8 samples.

Results

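The genes of the unfolded protein response and of the ATF4 response, 36 in number, were followed through the first days of factor-driven reprogramming of mouse embryonic fibroblasts. Their symbols were given as a list, and each of the 36 was matched to 1 Ensembl identifier among the 32108 genes of the deposited table. They were divided by role into 13 chaperones and folding enzymes of the endoplasmic reticulum (ER), 2 genes of ER-associated degradation, 4 genes of the sensors and XBP1, 8 genes of ATF4 and its stress effectors, 6 enzymes of amino acid and one-carbon metabolism and 3 amino acid transporter subunits. The 4F2A strain carries a doxycycline-inducible cassette of Oct4, Sox2, Klf4 and c-Myc, and per the labels the fibroblasts came from male embryos at 13.5 days post coitum that were homozygous for it. Every library came from cells given 2 μg/mL doxycycline from D0, in KnockOut DMEM with KnockOut Serum Replacement, non-essential amino acids, glutamine and 1000 U/mL LIF, changed daily. Bulk RNA was sequenced on D2, D4, D6 and D8 after doxycycline was added, with 2 libraries a day and 8 in all. The titles of all 8 carry the tag Ctr, and neither a D0 sample nor cells without doxycycline are among the samples used here, so D2 is the earliest day of comparison. The labels speak of parallel replicates without naming separate cultures or embryos, and p-values then measure only the spread between these libraries, which may be technical.

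When unfolded proteins accumulate in the ER, the sensors PERK (encoded by Eif2ak3), IRE1 (Ern1) and ATF6 are activated. ATF6 and the spliced form of XBP1 raise the transcription of ER chaperones, and PERK phosphorylates the translation factor eIF2alpha, which lowers protein synthesis in general and raises translation of ATF4. The same phosphorylation is made by kinases that answer to amino acid shortage, viral RNA or lack of haem, so ATF4 and its targets (amino acid synthesis, amino acid import, and stress effectors such as CHOP) also respond without ER stress. Fibroblasts secrete much collagen and matrix and keep a large ER for it. The values here are levels of RNA per gene, which record neither the splicing of Xbp1 nor the translation of Atf4.

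The libraries held 19409936 to 20161021 counted reads, recovered from the steps of the deposited values in CPM (reads per 1000000 counted reads), and 3 reads, the limit that a count of 0 allows, equalled 0.149 to 0.155 CPM. All 36 genes passed the filter on low values (at least 1 CPM in at least 2 libraries, 15358 genes), and the lowest value of any of them was 2.51 CPM. Libraries of the same day differed by more than counting noise: the chi-square of their reads averaged 1.34 per gene on D2 and 3.55 to 5.30 on the other days, where counting noise alone gives about 1. Of 13 fibroblast markers all were detected, with a summed level of 36968 to 54707 CPM that was highest in the D4 libraries. The factor gene Pou5f1 (Oct4) had a mean of 113 CPM on D2 and 281 CPM on D8, while the pluripotency gene Nanog stayed between 0.252 and 0.569 CPM. All 8 libraries went against the label of male embryos: Xist stood at 702 to 1238 CPM, and none of Uty, Eif2s3y, Kdm5d and Ddx3y, all on the Y chromosome, exceeded 0.333 CPM. In bulk RNA a gene's level cannot separate fewer cells of a type from less RNA per cell, and this holds for every change below.

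Promoter sequences of 32 of the 36 genes were found in the RefSeq table (build GRCm38.p6, 250 bases before to 50 after the start). Atf6, Hyou1, Manf and Slc7a5 had no entry. Both strands were searched for the ER stress response element (ERSE: CCAAT, any 9 bases, then CCACG), which ATF6 binds together with NF-Y, and for its shorter form ERSE-II (ATTGG, any 1 base, then CCACG). They were also searched for the XBP1 and ATF6 element TGACGTGG and for the C/EBP-ATF element TGATGNAA, which ATF4 binds together with C/EBP proteins. ERSE was found in 7 of the 32, and all 7 were among the 11 chaperones with a promoter sequence. Of all 32851 promoters in the table, 0.119% held it, and of all 27025 genes 0.137% had a promoter that did. The C/EBP-ATF element was found in 6 of the 32, of which 5 were among the 16 ATF4 and amino acid genes with a promoter sequence. It was held by 3.97% of all promoters and by 4.51% of all genes. Both elements were defined in part on promoters of these very genes, so their presence is a property of the list and no independent result. The XBP1 and ATF6 element TGACGTGG stood in 0 of the 32, in 0.676% of all promoters and in 0.714% of all genes. The bare core CCACG, part of ERSE and ERSE-II, stood in 24 of the 32, in 32.8% of promoters and in 35.5% of genes.

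The ERSE stretches are shown because they mark the chaperones that share a regulatory element. Each runs 5′ to 3′ on the strand the RefSeq table gives for its gene, with ERSE in capitals, and an element that begins with CGTGG lies on the opposite strand. The end of the window was found in a transcript of the gene for all of them except Dnajc3, whose direction was therefore not checked. The coordinates on GRCm38.p6 are chr10:86705618-86705676 and chr10:86705513-86705571 for Hsp90b1 (minus strand), chr8:84847055-84847113 for Calr (minus strand), chr11:50325780-50325838 for Canx (minus strand), chr12:17266471-17266529 for Pdia6 (plus strand), chr14:118937807-118937865 for Dnajc3 (plus strand) and chr15:88819500-88819558 for Creld2 (plus strand). The middle of the element lay between 203 and 56 bases before the start, closest in Hspa5.
Hsp90b1, upstream element: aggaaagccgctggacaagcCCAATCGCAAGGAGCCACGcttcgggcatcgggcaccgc
Hsp90b1, downstream element: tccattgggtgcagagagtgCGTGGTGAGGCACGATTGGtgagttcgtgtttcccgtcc
Calr: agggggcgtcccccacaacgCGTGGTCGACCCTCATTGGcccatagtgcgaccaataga
Canx: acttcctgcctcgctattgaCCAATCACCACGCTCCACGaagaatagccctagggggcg
Pdia6: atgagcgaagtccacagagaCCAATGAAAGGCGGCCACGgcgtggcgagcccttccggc
Dnajc3: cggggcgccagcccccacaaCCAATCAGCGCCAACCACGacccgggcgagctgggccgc
Creld2: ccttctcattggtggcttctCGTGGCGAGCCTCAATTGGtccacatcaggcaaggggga

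Whole windows of 300 bases are shown for Hspa5 (chr2:34771840-34772139, plus strand), the chaperone BiP with its ERSE in capitals, and for Herpud1 (chr8:94386179-94386478, plus strand), the only one of the 32 with both kinds of element. In Herpud1 the first capitals are the C/EBP-ATF element on the opposite strand and the second are ERSE-II, a motif in 0.0365% of all promoters. The window of Slc7a11 (chr3:50443564-50443863, minus strand), the cystine transporter, holds a pair of C/EBP-ATF elements in opposite directions.
Hspa5: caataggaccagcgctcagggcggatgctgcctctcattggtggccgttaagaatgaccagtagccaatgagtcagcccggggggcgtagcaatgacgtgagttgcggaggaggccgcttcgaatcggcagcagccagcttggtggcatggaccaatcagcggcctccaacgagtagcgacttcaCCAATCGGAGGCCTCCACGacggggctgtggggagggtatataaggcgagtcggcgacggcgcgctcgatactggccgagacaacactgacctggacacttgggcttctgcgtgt
Herpud1: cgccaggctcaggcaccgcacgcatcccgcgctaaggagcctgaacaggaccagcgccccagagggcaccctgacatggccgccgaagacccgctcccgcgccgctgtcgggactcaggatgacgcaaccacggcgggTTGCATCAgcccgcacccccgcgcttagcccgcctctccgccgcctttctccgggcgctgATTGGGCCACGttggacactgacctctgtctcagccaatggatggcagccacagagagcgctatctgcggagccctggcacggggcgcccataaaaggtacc
Slc7a11: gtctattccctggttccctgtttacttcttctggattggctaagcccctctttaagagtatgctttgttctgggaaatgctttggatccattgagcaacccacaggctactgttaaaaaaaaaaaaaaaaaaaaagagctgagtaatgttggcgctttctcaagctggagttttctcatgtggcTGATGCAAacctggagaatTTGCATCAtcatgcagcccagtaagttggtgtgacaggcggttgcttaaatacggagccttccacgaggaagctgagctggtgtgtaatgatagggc

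The C/EBP-ATF stretches of the other 4 ATF4 and amino acid genes that hold the element are shown because their changes are set against those of the genes without it below. They lie at chr2:152344019-152344066 for Trib3 (minus strand), chr2:119351029-119351076 for Chac1 (plus strand), chr19:27216800-27216847 for Vldlr (plus strand) and chr6:7693205-7693252 for Asns (minus strand). The element is in capitals, and one that begins with TT lies on the opposite strand.
Trib3: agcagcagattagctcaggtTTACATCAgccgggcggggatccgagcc
Chac1: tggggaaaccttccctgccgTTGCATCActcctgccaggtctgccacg
Vldlr: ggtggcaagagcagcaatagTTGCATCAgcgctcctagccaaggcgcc
Asns: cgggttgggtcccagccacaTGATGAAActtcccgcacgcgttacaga

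**Figure D1:**
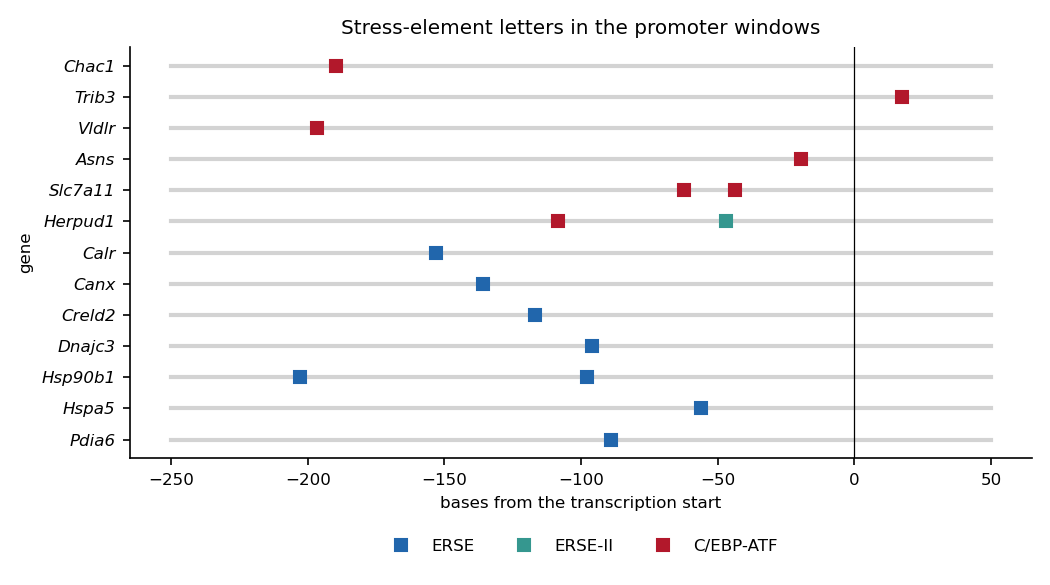
Position of promoter elements in the genes that hold one, with the distance of the element's middle from the gene's start in bases on the horizontal axis and 1 row per gene; colour gives the kind of element, and the grey line is the window searched. The ERSE elements sit 203 to 56 bases before the start, all in chaperone genes.

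Between D2 and D4 the RNA of most of these genes fell, in chaperones by a modest amount and in ATF4 and amino acid genes by more. With limma on log2(CPM + 1), adjusted over all 15358 tested genes, 29 of the 36 fell and 3 rose from D2 to D4, while 21.7% of all tested genes fell and 40.9% rose. Their median change was -0.47 against 0.11 for all tested genes (all changes are on the log2(CPM + 1) scale). The days' libraries did not overlap in 33 of the 36 genes, and in 81.3% of all tested genes. From D4 to D6, 16 fell and 4 rose, where 12.6% of all tested genes fell and 25.2% rose, and 28 did not overlap, as 69% of all tested genes did not. From D6 to D8, 6 fell and 2 rose, where 4.39% fell and 4.72% rose, and 20 did not overlap, against 55.8%. Over the whole span from D2 to D8, 28 fell and 3 rose, against 23.1% and 47.3% of all tested genes, and 35 did not overlap, against 85.7%. Any difference between days was called for 34 of the 36 by limma's F test, against 80.4% of all tested genes, and the 2 without a call were the chaperones Dnajb9 and Creld2. The level was highest on D2 in 30 of the 36 genes and in 26.1% of all tested genes. Of all genes called from D2 to D4, 65.3% rose with the deposited scaling, 52.0% with median-of-ratios scaling and 47.1% with quantile normalization. With the latter 2, 4651 and 4958 of the 15358 tested genes fell, against 3330 as deposited. The falls among the 36 genes numbered 29 and 27 with the same 2. Some of these counts rested on single libraries: without D6 replicate 1 the falls from D4 to D6 numbered 10 and the rises 2, and without D6 replicate 2 the rises also numbered 2. For D8 against D6 the 6 falls became 2 without D8 replicate 1 and 3 without D6 replicate 2. Neither of the 2 rises, those of Hspa5 and Dnajc3, was called once any 1 of the D2, D6 or D8 libraries was left out.

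**Figure D2:**
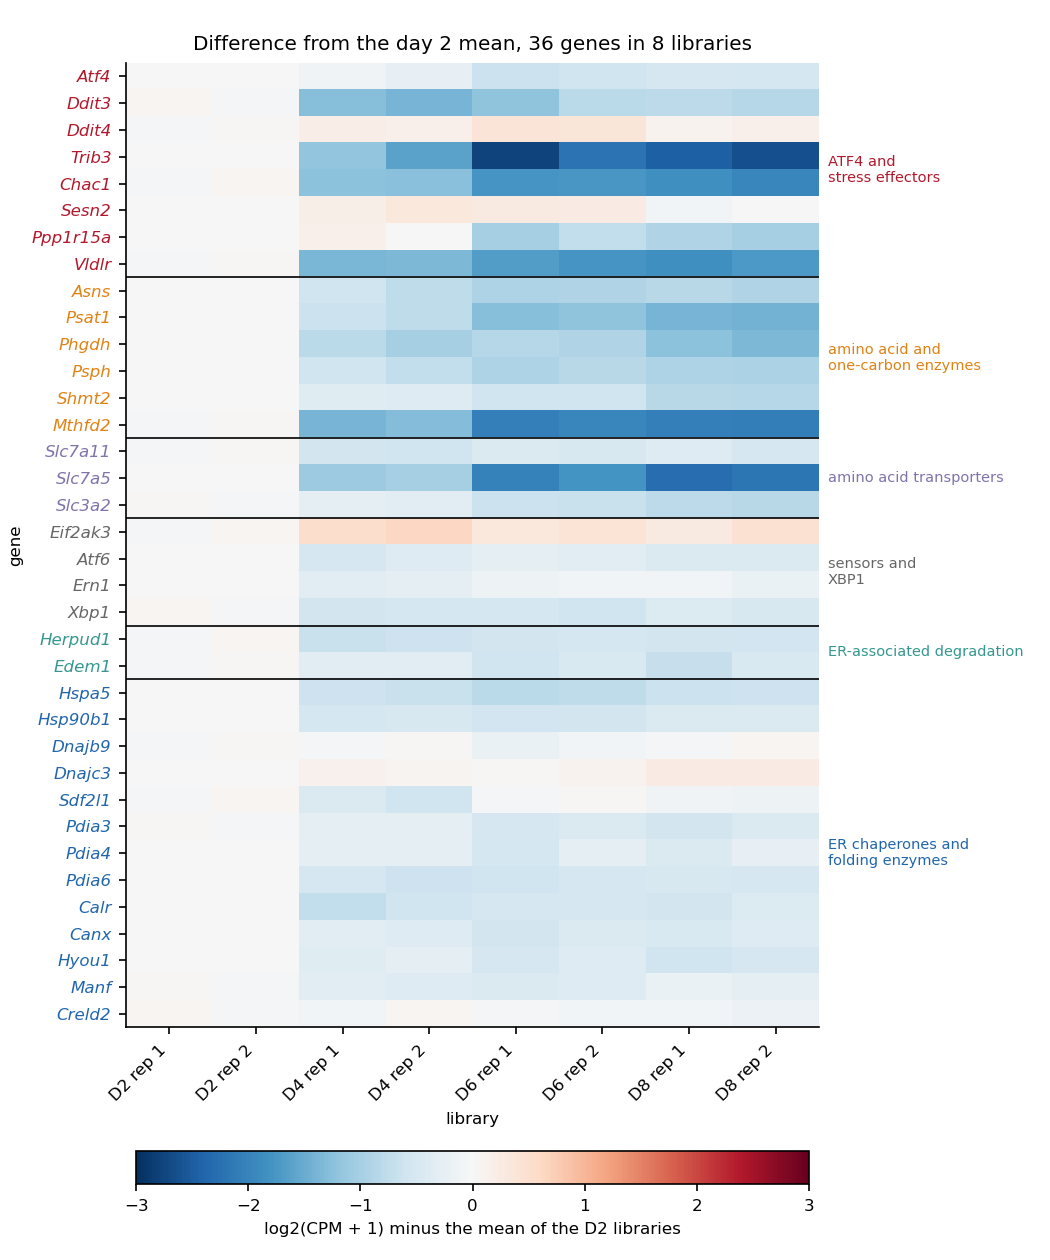
Heat map of the 36 genes (rows, grouped by role) in the 8 libraries (columns, by day and replicate); colour gives the difference in log2(CPM + 1) from the mean of the D2 libraries, blue lower and red higher. Most rows are blue from D4 on, deepest for Trib3, Slc7a5, Mthfd2, Chac1 and Vldlr, and the rows of Eif2ak3, Ddit4, Sesn2 and Dnajc3 turn red at some day.

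Most ER chaperones fell between D2 and D4, with few called changes afterwards. At that step 10 of the 13 fell and 0 rose, with a median change of -0.36, against 21.7% and 40.9% of all tested genes. At D6 against D4 2 fell and 2 rose, with a median of -0.06, where 12.6% of all tested genes fell and 25.2% rose. Hspa5 (chr2:34771970-34777547, plus strand, mm10) encodes BiP, the Hsp70 chaperone of the ER lumen that also holds the sensors inactive. It stood at 899 and 887 CPM in the D2 libraries, 579.9 and 566 in D4, 506 and 524 in D6 and 573 and 585 in D8. All 6 later libraries lay below both D2 libraries, and the fall from D2 to D4 was 0.64 (SE 0.05, adjusted p = 8.2e-08). Hsp90b1 (chr10:86690209-86705509, minus strand) encodes GRP94, the ER member of the Hsp90 family, and measured 1049 and 1047 CPM in the D2 libraries, 727 and 755 in D4, 704 and 721 in D6 and 776 and 777 in D8. Its levels from D4 on did not reach those of D2, and it fell by 0.50 (SE 0.05, adjusted p = 1.1e-06) from D2 to D4. An antisense pseudogene that the table lists at up to 136 CPM overlaps 10.3% of the exon bases of Hsp90b1, and since strandedness is not given in the sources used here, reads of the overlap cannot be told apart.

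The lectin chaperones, which bind glycoproteins during folding, also fell at the first step. Calr (chr8:84841850-84846934, minus strand), encoding calreticulin, had 1497 and 1465 CPM in the D2 libraries, 891 and 976 in D4, 1041 and 1053 in D6 and 1015 and 1120.3 in D8. It was lowest on D4, fell by 0.67 (SE 0.06, adjusted p = 8.3e-07) and then rose by 0.17 (SE 0.06, adjusted p = 0.04999) from D4 to D6. That rise passed the threshold narrowly and was not called in 10 of the 16 alternative settings, among them without D2 replicate 1 or 2, D4 replicate 1 or D6 replicate 1 or 2. Canx, encoding the membrane-bound calnexin, had 796 and 786 CPM in the D2 libraries, 634 and 600.5 in D4, 542 and 589 in D6 and 577 and 605 in D8. It fell by 0.36 (SE 0.06, adjusted p = 8.2e-05) and did not return.

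Of the disulfide isomerases, Pdia3 encodes ERp57, which works with calnexin and calreticulin, and stood at 1284 and 1227 CPM in the D2 libraries, 1032 and 1028 in D4, 892 and 933 in D6 and 862 and 924 in D8. It fell by 0.29 (SE 0.05, adjusted p = 0.00051) at the first step and by 0.17 (SE 0.05, adjusted p = 0.024) at the second, where the call was not made without D4 replicate 1 or 2 or D6 replicate 1. Under quantile normalization the first step of Pdia3 was 0.03, so its direction there depended on the scaling. Pdia4 had 257 and 249.6 CPM in the D2 libraries, 205 and 205 in D4, 177 and 211 in D6 and 187 and 213 in D8. Pdia6, another ER disulfide isomerase, had 273 and 268 CPM in the D2 libraries, 190.2 and 175 in D4, 179.6 and 189 in D6 and 193 and 190.3 in D8. The D2 libraries were above all later ones for both, with falls to D4 of 0.30 (SE 0.08, adjusted p = 0.0037) for Pdia4 and 0.57 (SE 0.05, adjusted p = 6.9e-07) for Pdia6. The fall of Pdia4 was not called with no filter on low values, nor under quantile normalization, where it was -0.19.

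Hyou1 encodes GRP170, a nucleotide exchange factor of BiP, and had 177 and 181 CPM in the D2 libraries, 139 and 147 in D4, 127 and 137 in D6 and 117 and 127 in D8. The mean was lower on each later day. Its fall from D2 to D4 was 0.32 (SE 0.06, adjusted p = 0.00029) and that from D2 to D8 was 0.55 (SE 0.06, adjusted p = 1.4e-06). Manf encodes a secreted ER protein that binds BiP, and had 96.8 and 91.2 CPM in the D2 libraries, 75.4 and 71.1 in D4, 69.4 and 71.3 in D6 and 82.0 and 76.6 in D8. It fell by 0.36 (SE 0.06, adjusted p = 0.00012) at the first step, with the D8 libraries between those of D2 and D4. Sdf2l1, a partner of BiP and its J-domain proteins, showed a trough, with 8.83 and 9.71 CPM in the D2 libraries, 6.64 and 5.77 in D4, 9.07 and 9.46 in D6 and 8.60 and 8.30 in D8. The D4 libraries were the lowest: Sdf2l1 fell by 0.51 (SE 0.10, adjusted p = 0.00064) to D4 and rose by 0.51 (SE 0.10, adjusted p = 0.0016) from D4 to D6. At D8 against D2 its change of -0.12 (SE 0.10, adjusted p = 0.31) did not pass the test, but it was called lower under median-of-ratios scaling (-0.28) and quantile normalization (-0.51).

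Dnajb9, Creld2 and Dnajc3 did not follow the others. Dnajb9, encoding the BiP co-chaperone ERdj4, stood at 34.2 and 36.4 CPM in the D2 libraries, 34.5 and 36.3 in D4, 30.8 and 33.4 in D6 and 34.4 and 36.7 in D8. Creld2, an ER-stress-inducible folding factor, stood at 25.2 and 22.9 CPM in the D2 libraries, 22.8 and 24.9 in D4, 23.5 and 22.6 in D6 and 22.6 and 21.1 in D8. Neither passed the test in any of the 4 comparisons, with changes from D2 to D8 of 0.01 (SE 0.07, adjusted p = 0.93) for Dnajb9 and -0.13 (SE 0.08, adjusted p = 0.15) for Creld2. Under median-of-ratios scaling and quantile normalization both were called lower at D8, Dnajb9 at -0.17 and -0.20 and Creld2 at -0.31 and -0.38. Dnajc3, encoding p58IPK, a BiP co-chaperone that also inhibits PERK, measured 121 and 122 CPM in the D2 libraries, 132 and 128 in D4, 125 and 130.4 in D6 and 145 and 144 in D8. The D8 libraries were the highest, and Dnajc3 was higher on D8 than on D2 by 0.25 (SE 0.05, adjusted p = 0.00037), which under median-of-ratios scaling was 0.07 and not called. From D6 to D8 the rises of Dnajc3 and of Hspa5 were 0.18 (SE 0.05, adjusted p = 0.037) and 0.17 (SE 0.05, adjusted p = 0.044), and these calls were not made in 9 and 11 of the 16 alternative settings, in both cases including those without any 1 of the D2, D6 or D8 libraries. The fall of Hspa5 from D4 to D6, 0.15 (SE 0.05, adjusted p = 0.021), was not called in 6, among them without D2 replicate 1 or 2, D4 replicate 1 or D6 replicate 1.

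Herpud1 and Edem1, both of ER-associated degradation, fell at the first step too. Herpud1 encodes the membrane protein HERP of the degradation complex and had 74.0 and 80.9 CPM in the D2 libraries, 48.3 and 50.04 in D4, 52.1 and 53.4 in D6 and 52.6 and 51.9 in D8. The D2 libraries stood apart from all others. It fell by 0.64 (SE 0.06, adjusted p = 6e-07) and showed no called change afterwards. Edem1, which acts on the mannose residues of misfolded glycoproteins, had 93.6 and 97.0 CPM in the D2 libraries, 76.2 and 75.3 in D4, 62.7 and 69.4 in D6 and 59.0 and 69.4 in D8. It fell by 0.33 (SE 0.07, adjusted p = 0.0016) to D4, and its further fall to D6 of 0.20 (SE 0.07, adjusted p = 0.04952) was not called in 8 of the 16 alternatives, among them without either D2 or D4 replicate and without D6 replicate 1, where it was -0.12.

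Among the sensors, the gene of PERK rose at the first step while those of IRE1, ATF6 and XBP1 fell. Eif2ak3 (chr6:70844515-70905245, plus strand) encodes PERK and had 39.0 and 42.4 CPM in the D2 libraries, 59.3 and 62.8 in D4, 51.1 and 54.0 in D6 and 49.6 and 56.3 in D8. The D2 libraries were the lowest, and Eif2ak3 rose by 0.57 (SE 0.07, adjusted p = 1.2e-05) to D4. It then declined by 0.21 (SE 0.07, adjusted p = 0.032) to D6, a step not called without D4 replicate 2 or D6 replicate 1 or 2. At D8 it remained above D2 by 0.37 (SE 0.07, adjusted p = 0.00039). Atf6 had 92.2 and 91.2 CPM in the D2 libraries, 64.5 and 69.4 in D4, 74.6 and 72.3 in D6 and 68.1 and 67.8 in D8. Every later library lay below D2, with a fall of 0.45 (SE 0.05, adjusted p = 7.7e-06) to D4. Ern1, encoding IRE1alpha, had 25.7 and 26.2 CPM in the D2 libraries, 20.8 and 21.0 in D4, 23.1 and 24.6 in D6 and 24.3 and 22.6 in D8. It fell by 0.30 (SE 0.07, adjusted p = 0.0025) to D4, but at D8 against D2 its change of -0.14 (SE 0.07, adjusted p = 0.093) did not pass the test. That change was called lower under median-of-ratios scaling (-0.32) and quantile normalization (-0.39). Xbp1, the transcript that IRE1 splices, had 122 and 114 CPM in the D2 libraries, 79.7 and 81.0 in D4, 81.2 and 78.2 in D6 and 89.0 and 84.5 in D8. The D2 libraries lay above all others, with a fall to D4 of 0.55 (SE 0.05, adjusted p = 1.4e-06).

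ATF4 and its stress effectors held both deep falls and a few rises: 5 of the 8 fell and 2 rose at the first step, and 5 fell and 2 rose at the second. Among all tested genes 21.7% fell and 40.9% rose at the first step, and 12.6% fell and 25.2% rose at the second. Atf4 (chr15:80255184-80257541, plus strand) itself had 173 and 176 CPM in the D2 libraries, 161 and 148 in D4, 111 and 114 in D6 and 123 and 119.9 in D8. Its first fall was small, 0.18 (SE 0.05, adjusted p = 0.0092), and not called without D2 replicate 2 or D4 replicate 2. The fall from D4 to D6 was 0.45 (SE 0.05, adjusted p = 2.7e-05), with no overlap between these days.

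Trib3 (chr2:152337422-152344032, minus strand) encodes a pseudokinase that ATF4 and CHOP induce, and it measured 30.9 and 31.1 CPM in the D2 libraries, 13.0 and 9.58 in D4, 3.64 and 5.93 in D6 and 4.89 and 4.10 in D8. The D2 libraries lay above those of D4, which in turn lay above those of D6 and D8. Trib3 fell by 1.39 (SE 0.17, adjusted p = 1e-05) to D4 and by 1.10 (SE 0.17, adjusted p = 0.00027) to D6, and its mean on D2 was 6.88 times that on D8. Chac1, which degrades glutathione, had 12.3 and 13.2 CPM in the D2 libraries, 4.89 and 4.76 in D4, 3.02 and 3.12 in D6 and 2.83 and 2.51 in D8. It fell by 1.24 (SE 0.11, adjusted p = 3.6e-07) and then by 0.52 (SE 0.11, adjusted p = 0.002), with no overlap at either step. Vldlr, the very-low-density lipoprotein receptor, had 58.2 and 60.5 CPM in the D2 libraries, 22.5 and 22.6 in D4, 17.9 and 16.6 in D6 and 15.9 and 17.4 in D8. Here most of the change came first, 1.36 (SE 0.07, adjusted p = 4e-09) to D4, with 0.37 (SE 0.07, adjusted p = 0.0017) to D6.

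Ddit3 (chr10:127290774-127296288, plus strand) encodes CHOP, a transcription factor linked to cell death under lasting stress, and had 47.7 and 44.5 CPM in the D2 libraries, 18.5 and 16.9 in D4, 19.3 and 26.0 in D6 and 26.2 and 24.9 in D8. It dropped by 1.33 (SE 0.11, adjusted p = 2.4e-07) to D4 and then recovered in part, by 0.33 (SE 0.11, adjusted p = 0.032) to D6. That partial rise was not called without D4 replicate 2 (0.27) or D6 replicate 2 (0.12), nor under either rescaling, and a neighbouring gene, Mars, overlaps 4.0% of the exon bases of Ddit3 on the other strand. Ppp1r15a encodes GADD34, which directs the phosphatase that reverses eIF2alpha phosphorylation, and had 35.3 and 34.3 CPM in the D2 libraries, 39.0 and 34.7 in D4, 16.99 and 20.4 in D6 and 18.1 and 17.1 in D8. Its change to D4 was 0.08 (SE 0.09, adjusted p = 0.47) and did not pass the test. It then fell by 0.95 (SE 0.09, adjusted p = 4.7e-06) to D6, with the D6 and D8 libraries all below those of D2 and D4.

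With the deposited scaling, both genes of the list whose products inhibit mTORC1 rose before they fell. Ddit4, encoding REDD1, had 56.6 and 58.9 CPM in the D2 libraries, 67.0 and 64.2 in D4, 76.3 and 75.0 in D6 and 62.0 and 64.5 in D8. It rose by 0.18 (SE 0.05, adjusted p = 0.0098) to D4 and by 0.20 (SE 0.05, adjusted p = 0.0091) to D6, and fell by 0.25 (SE 0.05, adjusted p = 0.013) to D8. Under median-of-ratios scaling neither rise was called, and under quantile normalization the first, at 0.085, was not. The first rise was also not called without D2 or D4 replicate 1, the second without D4 replicate 2 or D6 replicate 1, and the fall without D6 replicate 1 or 2 or D8 replicate 1. At D8 Ddit4 stood above D2 by 0.13 (SE 0.05, adjusted p = 0.044), a call not made in 9 of the 16 alternatives, including those without any 1 of the D2, D6 or D8 libraries. Sesn2, a leucine sensor, had 96.8 and 98.2 CPM in the D2 libraries, 111 and 122 in D4, 118 and 116 in D6 and 91.8 and 96.2 in D8. It rose by 0.26 (SE 0.06, adjusted p = 0.0012) to D4 and showed no called change to D6. From D6 to D8 it fell by 0.31 (SE 0.06, adjusted p = 0.0052), which was not called without D8 replicate 1 or with no filter on low values. At D8 against D2 its change of -0.05 (SE 0.06, adjusted p = 0.41) did not pass the test. Under median-of-ratios scaling that change was called lower (-0.24).

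**Figure D3:**
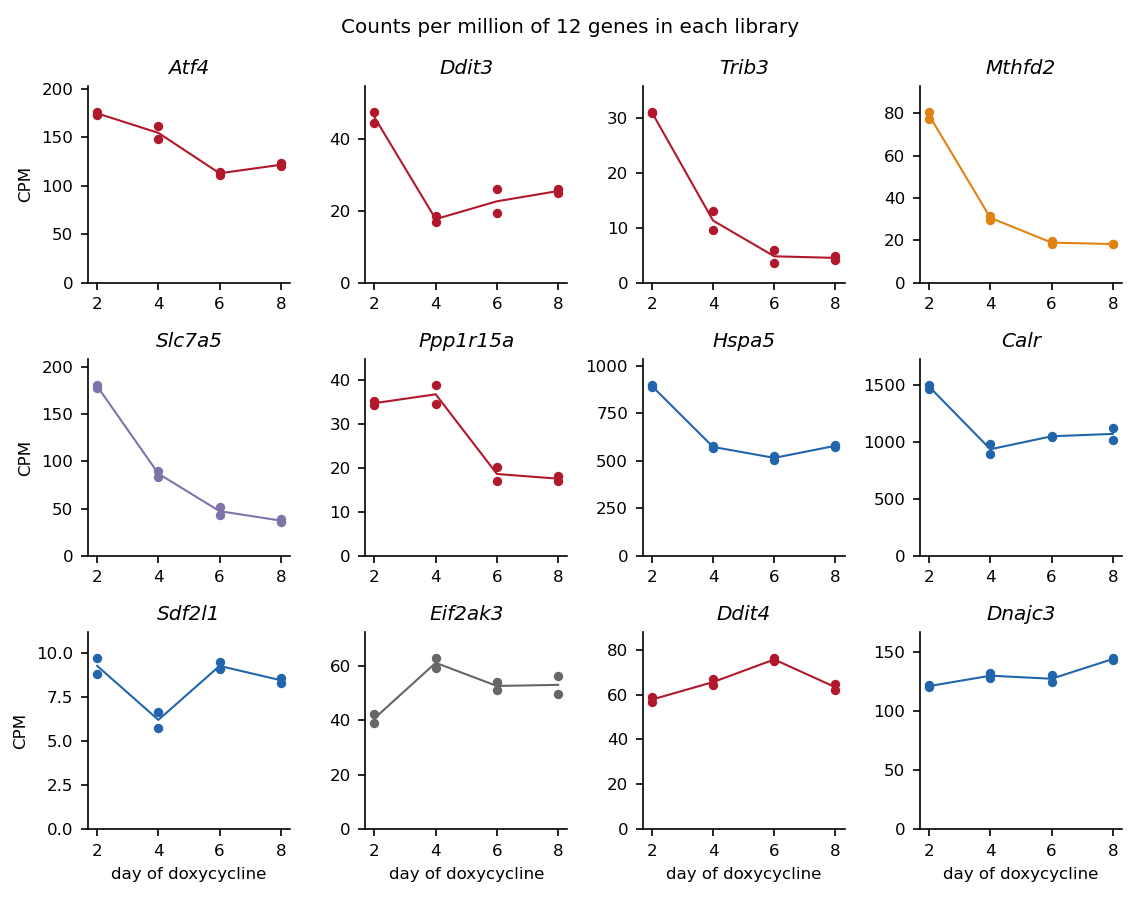
CPM in each library (points) against day for single genes, with a line through the means of the 2 libraries of a day; each panel has its own axis from 0. Trib3, Mthfd2 and Slc7a5 fall at 2 successive steps, Ppp1r15a only from D4 to D6, and Eif2ak3 lies lowest on D2.

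The enzymes of amino acid and one-carbon metabolism all fell: 6 of 6 from D2 to D4, 5 of 6 from D4 to D6, and 6 of 6 from D2 to D8. The shares of all tested genes that fell were 21.7%, 12.6% and 23.1%. Asns (chr6:7675169-7693254, minus strand), asparagine synthetase, had 229.6 and 232 CPM in the D2 libraries, 151 and 135 in D4, 122 and 123 in D6 and 130.0 and 122 in D8. It fell by 0.69 (SE 0.06, adjusted p = 2.5e-07) to D4 and by 0.22 (SE 0.06, adjusted p = 0.0083) to D6. The second step was not called without D4 replicate 1, where it was -0.14, or without D6 replicate 1. Phgdh, Psat1 and Psph encode the successive enzymes of serine synthesis. Phgdh (chr3:98313170-98339990, minus strand) had 134 and 135 CPM in the D2 libraries, 76.9 and 66.7 in D4, 73.4 and 71.5 in D6 and 57.2 and 52.2 in D8, a course with a plateau between D4 and D6. It fell by 0.90 (SE 0.07, adjusted p = 1e-07) at the first step and by 0.40 (SE 0.07, adjusted p = 0.0043) at the last. Psat1 (chr19:15904678-15947337, minus strand) had 245 and 244 CPM in the D2 libraries, 156 and 143 in D4, 101 and 105 in D6 and 92.0 and 90.9 in D8, with no overlap between any of the days. It fell by 0.71 (SE 0.05, adjusted p = 8.3e-08) to D4 and by 0.53 (SE 0.05, adjusted p = 6.5e-06) to D6. Psph had 39.5 and 38.6 CPM in the D2 libraries, 25.6 and 22.9 in D4, 20.2 and 21.5 in D6 and 20.2 and 19.6 in D8. It fell by 0.67 (SE 0.07, adjusted p = 4.2e-06) to D4, and the further fall of 0.21 (SE 0.07, adjusted p = 0.042) to D6 was not called without D2 replicate 1 or 2, D4 replicate 1 or D6 replicate 1 or 2. Cct6a, listed at up to 348 CPM, overlaps 10.4% of the exon bases of Psph on the other strand.

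In the mitochondria, Shmt2 takes the one-carbon unit from serine and Mthfd2 oxidizes the folate that carries it. Shmt2 had 138 and 137 CPM in the D2 libraries, 107 and 106 in D4, 91.2 and 90.2 in D6 and 77.0 and 75.2 in D8. It was lower on each later day without overlap, by 0.37 (SE 0.05, adjusted p = 1.5e-05), 0.23 (SE 0.05, adjusted p = 0.0019) and 0.25 (SE 0.05, adjusted p = 0.0071). Mthfd2 (chr6:83305691-83325908, minus strand) had 77.3 and 80.8 CPM in the D2 libraries, 29.7 and 31.6 in D4, 18.2 and 19.6 in D6 and 18.4 and 18.1 in D8. Its D2 libraries were far above the rest, and it fell by 1.34 (SE 0.07, adjusted p = 2e-09) to D4 and by 0.67 (SE 0.07, adjusted p = 8.6e-06) to D6. Over the whole span the mean of Mthfd2 on D2 was 4.33 times that on D8.

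Of the transporters, Slc7a5 encodes LAT1, which carries leucine and other large neutral amino acids, Slc7a11 encodes xCT, which imports cystine, and Slc3a2 encodes the heavy chain that both need at the cell surface. Slc7a5 (chr8:121881150-121907694, minus strand) had 181 and 178 CPM in the D2 libraries, 83.9 and 90.1 in D4, 43.4 and 51.2 in D6 and 35.8 and 38.9 in D8. It fell by 1.04 (SE 0.07, adjusted p = 6.1e-08) to D4 and by 0.87 (SE 0.07, adjusted p = 2.2e-06) to D6. The further fall of 0.33 (SE 0.07, adjusted p = 0.018) to D8 was not called without D6 replicate 2 (-0.21) or D8 replicate 1 (-0.27). The D2 mean of Slc7a5 was 4.81 times that of D8. Slc3a2 had 170.3 and 163 CPM in the D2 libraries, 136 and 134 in D4, 107 and 105 in D6 and 95.5 and 93.1 in D8. The days did not overlap, with falls of 0.30 (SE 0.05, adjusted p = 0.0001) to D4 and 0.35 (SE 0.05, adjusted p = 0.0001) to D6. Its last step of -0.17 (SE 0.05, adjusted p = 0.047) was not called in 11 of the 16 alternatives, among them without any 1 of the D2, D6 or D8 libraries. Slc7a11 (chr3:49892526-50443614, minus strand) had 44.5 and 46.2 CPM in the D2 libraries, 30.8 and 29.5 in D4, 33.4 and 32.4 in D6 and 34.8 and 31.6 in D8. Unlike its heavy chain it showed no called change after D4, having fallen by 0.57 (SE 0.07, adjusted p = 5.9e-06).

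Set side by side, the chaperones and the ATF4 and amino acid genes (the 17 genes of ATF4, its effectors, the enzymes and the transporters) parted over time. The chaperones summed to 6518 and 6393 CPM in the D2 libraries, 4670.1 and 4718 in D4, 4425 and 4624 in D6, and 4594 and 4827 in D8. The 17 others summed to 1770.3 and 1772 CPM in D2, 1234 and 1183 in D4, 976 and 997 in D6, and 906 and 888 in D8. From D4 on the chaperone sums stayed between 4425 and 4827 CPM, with the D8 libraries overlapping those of D4 and D6, while the sums of the ATF4 and amino acid genes went down from each day to the next without overlap. As the mean log2 change from D2 over genes, which gives every gene equal weight, the chaperones stood at -0.34 and -0.34 in D4, -0.40 and -0.33 in D6, and -0.33 and -0.30 in D8. The ATF4 and amino acid genes stood at -0.64 and -0.72 in D4, -1.07 and -0.98 in D6, and -1.12 and -1.16 in D8. Their difference widened from 0.31 and 0.38 in D4 to 0.67 and 0.65 in D6 and 0.79 and 0.86 in D8. These means over genes carry no test, since the genes were chosen with results of these data known.

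**Figure D4:**
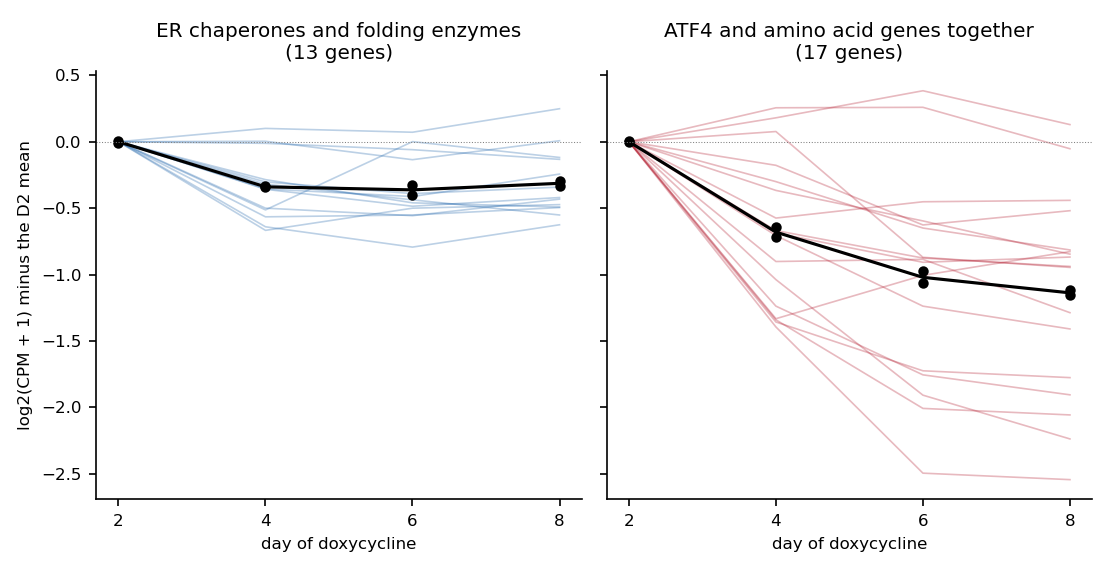
Log2(CPM + 1) relative to the mean of the D2 libraries against day, for the 13 chaperones (left) and the 17 ATF4 and amino acid genes (right); thin lines are the day means of single genes, points the mean over genes in each library and the black line their day means. The chaperones stay between -0.30 and -0.40 from D4 on, and the ATF4 and amino acid genes reach -1.12 and -1.16 on D8.

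The counts showed the same parting. From D4 to D6 2 of 13 chaperones and 12 of the 17 ATF4 and amino acid genes fell, with 12.6% of all tested genes lower at that step, and the medians were -0.06 and -0.35. Under median-of-ratios scaling, 5 of 13 chaperones were called lower at that step (Dnajb9, Canx and Hyou1 in addition) and 12 of the 17, with medians of -0.13 and -0.42. With that scaling 2873 of the 15358 tested genes were called lower from D4 to D6, against 1928 as deposited. From D2 to D8 9 of 13 chaperones and 15 of the 17 fell, with 23.1% of all tested genes lower, and the medians were -0.42 and -0.94. Those medians were -0.60 and -1.12 under median-of-ratios scaling and -0.29 and -1.16 under quantile normalization, with 12 of 13 chaperones called lower under either. Of the 15358 tested genes, 5207 and 5876 were called lower from D2 to D8 under these 2 scalings, against 3549 as deposited. Of the 9 chaperones that were lower on D8 than on D2, the change by D4 came to a median of 102% of the whole change (57.9% for Hyou1 to 146% for Manf). Of the 15 ATF4 and amino acid genes that were lower, it came to 65.0%, from -8.13% for Ppp1r15a, whose mean was slightly higher on D4, and 34.2% for Atf4 to 161% for Ddit3. These percentages were taken with the deposited scaling only. Under median-of-ratios scaling the chaperone median was -0.47 on D4 and -0.60 on D8, both against D2, and that of the 17 was -0.80 and -1.12. Under quantile normalization the chaperone median was -0.28 and -0.29, and that of the 17 was -0.71 and -1.16. The timing of the chaperone fall therefore depended in part on the scaling. The level was lowest on D8 in 12 of the 17 and in 3 of the 13, and in 19.0% of all tested genes. The days of the chaperone trough were spread, with 3 lowest on D4 and 6 on D6.

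**Figure D5:**
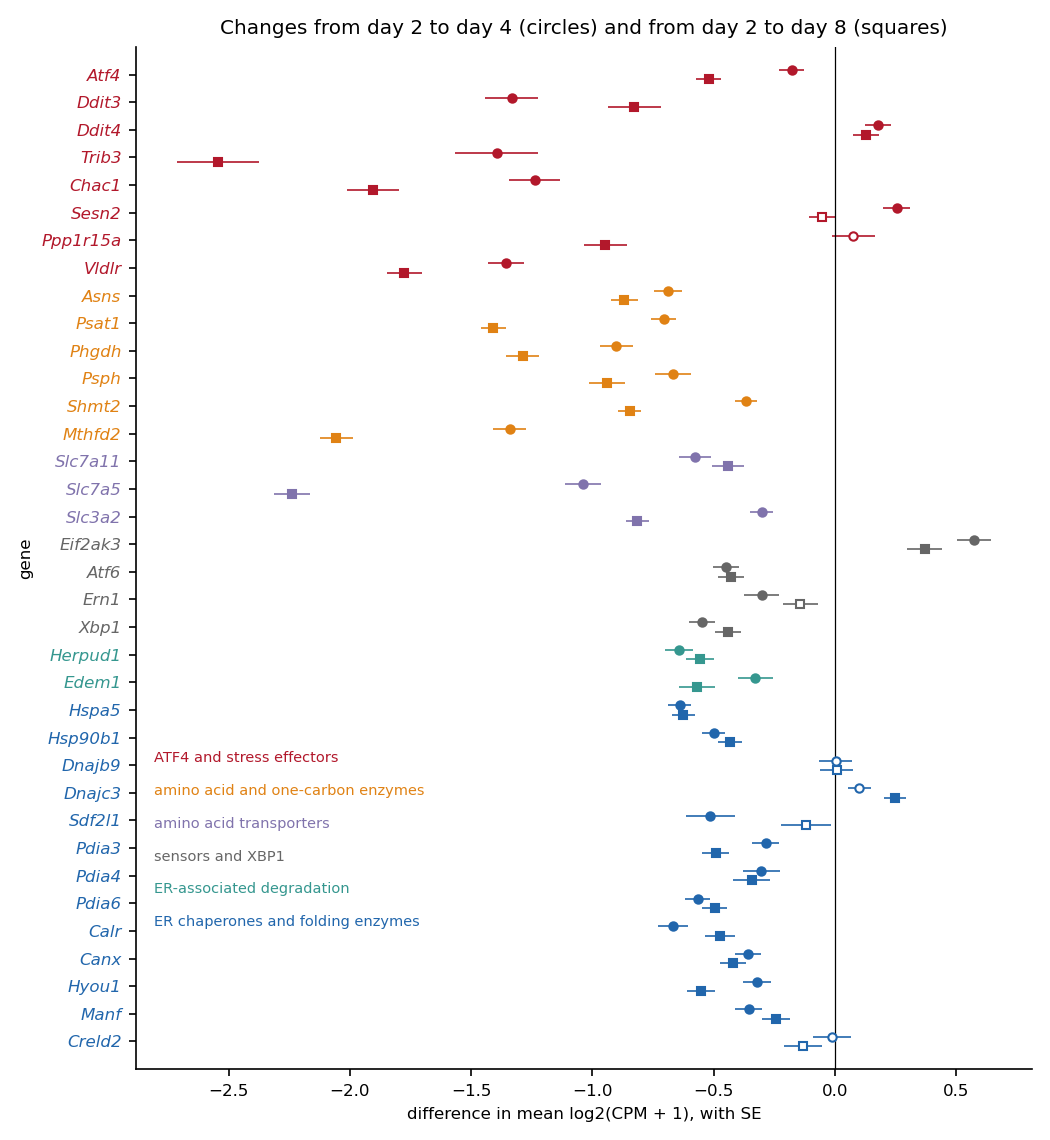
Log2 change of each of the 36 genes (rows, coloured by role) at D4 against D2 (circles) and D8 against D2 (squares), with bars of 1 SE from limma; filled points passed an adjusted p of 0.05. For most chaperones circle and square lie close together, while for Trib3, Slc7a5, Mthfd2 and Psat1 the square lies well to the left of the circle.

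Set beside the promoter elements, the 7 chaperones with ERSE had a median change of -0.50 from D2 to D4, and the 4 with a promoter sequence but no ERSE had -0.29. Calr, Hspa5, Pdia6, Hsp90b1 and Canx fell, whereas Dnajc3 and Creld2, which hold the element too, did not. Of the 4 without it, Pdia3, Pdia4 and Sdf2l1 fell and Dnajb9 did not. Thus 5 of 7 with ERSE and 3 of 4 without it were called lower, against 21.7% of all tested genes. The 5 ATF4 and amino acid genes with the C/EBP-ATF element had a median of -1.24 at that step and of -1.78 from D2 to D8, and the 11 without it -0.37 and -0.85. Those 5 are Trib3, Chac1, Vldlr, Asns and Slc7a11, and the 11 include Mthfd2 and Psat1, which also fell far. From D2 to D8 the changes of the 5 ran from -2.54 for Trib3 to -0.44 for Slc7a11, which holds a pair of the elements. Those of the 11 ran from -2.06 for Mthfd2 to 0.13 for Ddit4. Slc7a5, at -2.24, had no promoter sequence and is in neither group. These are descriptions of few genes with no test, and sites of either element outside the 300 bases were not looked for.

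Levels compared between genes are given per kilobase of exon. On D2 Calr had the highest mean level of the list, 514 CPM per kb, followed by Pdia3 with 400.02, Hsp90b1 with 259.9 and Hspa5 with 211. Among ATF4 and amino acid genes Asns with 84.4 and Atf4 with 74.1 were the highest on D2, and Slc7a11 with 3.26 and Vldlr with 5.90 the lowest. By D8 Ddit4, at 36.04 CPM per kb, stood above Psat1, Phgdh and Slc7a5 at 21.5, 22.0 and 10.1, all of which had been above it on D2. Of the sensors, Ern1 stood at 3.17 and Eif2ak3 at 6.75 CPM per kb on D2.

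Other genes of these pathways, taken from lists of textbook members, were read against the same background. The lists were chosen with earlier results of these data known, so their counts are no independent result. The cytosolic aminoacyl-tRNA synthetases, which charge tRNAs and several of which ATF4 is known to induce, mostly fell at the first step. From D2 to D4 15 of 20 fell and 0 rose, with a median of -0.54, while 21.7% of all tested genes fell and 40.9% rose. From D4 to D6 3 fell and 2 rose, against 12.6% and 25.2% of all tested genes. The synthetase for alanine, Aars, had 449 and 432 CPM in the D2 libraries, 197 and 195 in D4, 167 and 180.4 in D6 and 159 and 165 in D8. The D2 libraries stood apart, and Aars fell by 1.16 (SE 0.05, adjusted p = 5e-10) to D4. Nars fell by 1.06, Cars by 0.86 and Sars by 0.77 at that step (all 3 called). Further amino acid metabolism genes attributed to ATF4 were mixed, with 10 of 21 tested lower and 3 higher from D2 to D4, against 21.7% and 40.9%. At D6 against D4 7 of the 21 were lower and 3 higher, with a median of -0.08, against 12.6% and 25.2%. Aldh1l2, a mitochondrial folate enzyme, had 103 and 109.5 CPM in the D2 libraries, 41.8 and 37.9 in D4, 19.3 and 22.6 in D6 and 18.0 and 19.6 in D8. It fell by 1.39 (SE 0.08, adjusted p = 9.3e-09) to D4 and by 0.90 (SE 0.08, adjusted p = 3.7e-06) to D6. Cth, which makes cysteine, went against this, with 39.0 and 38.1 CPM in the D2 libraries, 79.9 and 61.4 in D4, 97.5 and 92.9 in D6 and 114 and 107 in D8. It rose by 1.49 (SE 0.09, adjusted p = 7.9e-09) from D2 to D8.

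Of 14 transcription factors and proteases of the response, 8 fell and 3 rose at the first step, where 21.7% of all tested genes fell and 40.9% rose. At D6 against D4 3 fell and 4 rose, with a median of 0.12, where 12.6% of all tested genes fell and 25.2% rose. Atf3, an immediate stress factor downstream of ATF4, had 99.1 and 84.0 CPM in the D2 libraries, 1.25 and 1.40 in D4, 1.38 and 2.00 in D6 and 1.03 and 0.769 in D8. Its fall of 5.31 (SE 0.14, adjusted p = 5.2e-12) to D4 was the steepest of any gene of these lists. Nfil3 fell by 2.15 (SE 0.10, adjusted p = 1.2e-09), and Atf5, which is translated like ATF4, by 0.97 (SE 0.05, adjusted p = 2e-09). Of 19 tested secreted and further stress targets, 13 fell and 2 rose from D2 to D4, against 21.7% and 40.9% of all tested genes. At D6 against D4 5 of them fell and 5 rose, with a median of 0.0, against 12.6% and 25.2%. Gadd45b, a growth arrest gene, had 71.5 and 67.7 CPM in the D2 libraries, 10.1 and 9.78 in D4, 10.1 and 10.4 in D6 and 10.3 and 10.8 in D8 and fell by 2.69 (SE 0.08, adjusted p = 1.5e-11). Ndrg1, also known to respond to hypoxia, fell by 2.13 (SE 0.08, adjusted p = 9.5e-11) to D4 and rose by 0.82 (SE 0.08, adjusted p = 4.5e-06) to D6.

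Genes of the ER machinery outside the chaperones moved in both directions from D2 to D4, a step at which 21.7% of all tested genes were lower and 40.9% higher. Of 18 genes of ER-associated degradation 6 fell and 6 rose from D2 to D4, with a median of -0.04. Of 19 oxidoreductases and lectin-cycle genes 5 fell and 5 rose. The called changes among 18 genes of the translocon and signal peptidase were mostly falls, with 7 lower and 1 higher. At D6 against D4 the falls in these lists numbered 4, 10 and 7, in the order given, with 1 rise in each. The medians at that step were -0.03, -0.18 and -0.14, where 12.6% of all tested genes fell and 25.2% rose. Ero1l, which reoxidizes the isomerases, had 235 and 224 CPM in the D2 libraries, 78.9 and 75.3 in D4, 77.0 and 84.3 in D6 and 82.9 and 78.9 in D8. It fell by 1.56 (SE 0.06, adjusted p = 1.1e-10) to D4. The collagen-modifying enzymes split: P4ha1 and P4ha2, subunits of prolyl hydroxylase, fell by 1.68 (SE 0.08, adjusted p = 6.9e-10) and 1.42 (SE 0.07, adjusted p = 2.2e-09). The prolyl isomerases Fkbp14 and Fkbp7 rose by 1.01 (SE 0.06, adjusted p = 6.1e-09) and 0.99 (SE 0.10, adjusted p = 1.4e-06). In all 5 of 14 collagen enzymes fell and 7 rose at that step. From D4 to D6 9 fell and 0 rose, while 12.6% of all tested genes fell and 25.2% rose. Of 13 genes of the other eIF2alpha kinases, eIF2 and eIF2B, 4 fell and 3 rose from D2 to D4. Eif2ak2, the kinase PKR that answers to double-stranded RNA, had 44.5 and 47.5 CPM in the D2 libraries, 109.6 and 104 in D4, 110.0 and 132 in D6 and 106 and 113 in D8. It rose by 1.20 (SE 0.08, adjusted p = 1.9e-08) to D4.

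Markers of other cell types summed to at most 539 CPM in any list and library. Macrophage markers summed to 83.6 to 125 CPM over the libraries, with 11 of 12 reaching 1 CPM. Endothelial markers summed to 74.0 to 167 CPM, with 5 of 9 reaching 1 CPM and Cdh5, Emcn, Cldn5 and Vwf below it in every library. Neural markers summed to 479 to 539 CPM (4 of 9 reached 1 CPM), muscle markers to 4.56 to 14.6 CPM (2 of 9) and keratinocyte markers to 67.6 to 107 CPM (4 of 7). The endothelial sum was 74.0 to 75.3 CPM on D2 and 165 to 167 on D8, but of its 5 tested markers 3 fell and 2 rose from D2 to D8, with a median of -0.64, and 2 fell and 1 rose from D2 to D4. The keratinocyte sum was 67.6 to 68.6 CPM on D2 and 105 to 107 on D8, and the muscle sum was 14.1 to 14.6 on D2 and 4.56 to 5.79 on D4. Fibroblast markers summed to 41625 to 41906 CPM on D2, 50154 to 54707 on D4 and 36968 to 40969.6 on D8. From D2 to D4 8 of the 13 rose and 4 fell, where 40.9% of all tested genes rose and 21.7% fell. From D4 to D6 2 rose and 8 fell, against 25.2% and 12.6%. From D2 to D8 5 rose and 6 fell, against 47.3% and 23.1%, with a median change of -0.17. Lum and Col3a1, which encode secreted matrix proteins, were among those that rose from D2 to D4. Lum had 10.9 and 11.8 CPM in the D2 libraries, 479.6 and 427 in D4, 540.1 and 532 in D6 and 819 and 869 in D8. Col3a1 had 2063 and 2031 CPM in the D2 libraries, 10519 and 10547 in D4, 7924 and 8867 in D6 and 7919 and 9329.9 in D8. Both were higher in every later library than on D2. Lum rose by 5.20 (SE 0.06, adjusted p = 8e-15) and Col3a1 by 2.36 (SE 0.09, adjusted p = 1.5e-10) from D2 to D4. They are named for the size of their changes and do not stand for the list. Over the 13 markers the changes at that step ran from -1.13 to 5.20, with a median of 0.49. The part of these shifts in the changes of the stress response genes was not tested.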

How the data were processed

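The authors deposited 1 table of CPM: reads of a gene divided by the library's total and multiplied by 1000000, although it is named for TPM. Values above 0 were whole reads in 52.8% to 54.3% of cases (tolerance 0.02 hundredths of a read), so no count test was run. The submitters' processing notes name Trimmomatic 0.39, featureCounts and mm10. The sources used here do not give the aligner, annotation release or strandedness. Symbols came from a list of gene names or, where it held none, from GENCODE M21. In this way 32029 identifiers received a symbol, and 79 remained without one. The mm10 positions were those of GENCODE M21. The 15358 genes that reached 1 CPM in 2 or more libraries entered a limma 3.58.1 model (R 4.3.3) of log2(CPM + 1), with 1 mean per day, 8 libraries, 4 residual degrees of freedom and an eBayes step with intensity trend. Two-sided p-values received Benjamini-Hochberg adjustment across those genes, and a change was called under 0.05. The fit was tested on simulated data. For genes at low levels the pseudocount makes changes smaller than the fold, and ratios are of mean CPM. All 36 genes are named, and of each other list at most 4 called genes with the largest change per comparison. The genes and lists were chosen with earlier results of these data known. Alternatives varied the pseudocount (0.1), the filter (none, or 5 CPM), the scaling, the trend, a replicate block and the libraries included. Limits of 3 reads cover counting error only. Protein sequences were not analysed here.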

Additional observations from a re-analysis of the deposited data

How the results depend on the processing

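Each of the 144 gene changes was recomputed under 16 alternatives, 8 of which left out 1 library. Of 91 called changes, 68 kept their direction and call in every alternative and 2 turned direction in at least 1. Of 53 changes that were not called, 25 changed sign in at least 1 alternative. The numbers of the replicates did not pair the libraries (correlations of same-numbered deviations between days from -0.102 to 0.207), and a replicate block changed 0 of the 144 calls, with 3 rises and 29 falls from D2 to D4 as without it.

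Deposited CPM placed the median of all tested genes 0.11 higher on D4 than on D2 and 0.17 higher on D8, and both rescalings remove most of this. The share of rises among all called genes from D2 to D4, D4 to D6 and D2 to D8 was 65.3%, 66.7% and 67.2% as deposited, 52.0%, 48.7% and 51.4% under median-of-ratios scaling and 47.1%, 47.7% and 45.1% under quantile normalization. Under these 2 scalings Dnajb9 at D8 against D2 was -0.17 and -0.20, and Ddit4 -0.053 and -0.0006. Pdia3 at D4 against D2 was 0.034 under quantile normalization. The cause of these turns was not tested.

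The chaperone median under median-of-ratios scaling and quantile normalization was -0.47 and -0.28 from D2 to D4, -0.13 and -0.12 from D4 to D6, and -0.60 and -0.29 from D2 to D8. The median of the ATF4 and amino acid genes under median-of-ratios scaling was -0.80, -0.42 and -1.12, and under quantile normalization -1.16 from D2 to D8. Leaving out libraries gave -0.76 to -0.61 for the latter genes from D2 to D4 and -0.17 to -0.076 from D6 to D8, and 0.019 to 0.13 for the chaperones from D6 to D8.

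The 4 rises from D4 to D6 became 2 with no filter, quantile normalization, no trend or only the days compared, and 1 under median-of-ratios scaling. Leaving out libraries gave 2 to 4 rises and 10 to 16 falls at that step. The 2 rises from D6 to D8 became 0 with no filter, no trend or only the days compared, and 1 under each rescaling, and the 6 falls became 2 with no filter or no trend. Leaving out libraries gave 0 to 2 rises and 2 to 7 falls there. From D2 to D8 the 3 rises became 1 under median-of-ratios scaling.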
